A study of Homo sapiens with 6 samples.

Results

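The genes described here are 10 genes of the NF-kB pathway, followed in FT282 cells that express BORIS and in FT282 cells that carry an empty vector. They are NFKBIA, TNFAIP3, BIRC3, NFKB1, NFKB2, RELB, SOD2, ICAM1, TNFAIP2 and IL32, taken by name from the deposited expression table, and all 10 were found among its 23278 rows. They were picked with their values in these libraries known, so their levels and ratios are a description and carry no test. All 10 had at least 1 FPKM in either library, as did 12496 genes in all. FPKM counts fragments per length of transcript and per size of the library, so levels of different genes can be compared.

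FT282 is an immortalised line of secretory epithelial cells of the human fallopian tube, and per the labels' protocols a clonal derivative of it was used. BORIS, the product of CTCFL, is a germ-line relative of the insulator protein CTCF. One population stably expressed BORIS, and the other stably carried the empty vector (EV). RNA was sequenced from both. BORIS was immunoprecipitated from BORIS cells, and CTCF from BORIS cells and from EV cells. Each of these groups held 1 library, so none of the values carries an error over replicates and every difference is one between libraries. The labels name 2 RNA library kits without saying which library was made with which. If the kits differed, kit and BORIS expression cannot be told apart.

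NF-kB is a family of dimeric transcription factors that IkB proteins hold in the cytoplasm. Cytokines such as TNF and interleukin 1, or microbial products acting on Toll-like receptors, activate the IKK kinases, which mark the IkB proteins for destruction and free the dimers to enter the nucleus. Among the genes that NF-kB then switches on are its own inhibitors and subunits, so a rise in their RNA is a customary sign of pathway activity. In epithelial cells it also drives chemokines, adhesion molecules and survival factors.

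NF-kB dimers bind kappaB sites, and the sequence close to the starts of the members was searched for matches to such sites. RefSeq promoter windows (GRCh38.p14, from 250 bases before to 50 bases after a start) were at hand for 9 of the 10 members, RELB not being among them. The textbook kappaB consensus, of 10 bases that begin with GGG and end with CC on one strand or the other, was found in at least 1 window of 6 of these 9 members. Of all 27305 genes with windows, 9.16% held it. Some genes have more than 1 window. Counted by window, 7 of the members' 16 held it, against 7.73% of all 35116. A second search, on both strands, used a loose form of the CTCF core, 14 bases long: CC, 3 free bases, AG, 2 free bases, GGC, 1 free base and C. It matched a window of 2 of the 9 members, TNFAIP3 and NFKB2, against 4.35% of all genes. A match describes the letters and is not a binding site. Both motifs were chosen with the members' windows in view, so nothing is read from these shares. The stretches below show where matches lay, with the matched bases in capitals. They are written on the strand of the gene, and the title of each line names the motif. The NFKB2 lines come from windows of different RefSeq starts, and 2 further kappaB stretches of NFKB2 are not shown.
TNFAIP3, kappaB, chr6:137867167-137867238, + strand: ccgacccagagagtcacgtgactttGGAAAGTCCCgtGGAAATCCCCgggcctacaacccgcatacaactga
TNFAIP3, CTCF core, chr6:137867106-137867169, + strand: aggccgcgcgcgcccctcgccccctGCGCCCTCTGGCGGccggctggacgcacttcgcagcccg
NFKBIA, kappaB, chr14:35404796-35404855, - strand: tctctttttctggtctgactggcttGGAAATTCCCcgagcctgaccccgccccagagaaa
BIRC3, kappaB, chr11:102317260-102317319, + strand: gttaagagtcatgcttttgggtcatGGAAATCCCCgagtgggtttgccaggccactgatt
NFKB1, kappaB, chr4:102501285-102501344, + strand: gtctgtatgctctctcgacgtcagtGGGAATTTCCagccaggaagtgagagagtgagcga
NFKB2, kappaB, chr10:102394446-102394534, + strand: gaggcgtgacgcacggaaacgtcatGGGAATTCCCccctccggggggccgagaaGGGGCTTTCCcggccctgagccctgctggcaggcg
NFKB2, CTCF core, chr10:102394045-102394108, + strand: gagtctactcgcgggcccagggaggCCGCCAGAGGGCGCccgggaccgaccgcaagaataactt
IL32, kappaB, chr16:3065279-3065338, + strand: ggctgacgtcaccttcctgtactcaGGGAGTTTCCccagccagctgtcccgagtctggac

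The inhibitors and feedback regulators stood among the members with the larger ratios. BIRC3, a ubiquitin ligase that works at TNF receptors and protects cells from death, was at 69.9 FPKM in BORIS cells and 48.4 FPKM in EV cells. TNFAIP3, also called A20, an enzyme that edits ubiquitin chains and shuts signalling down, was at 56.9 FPKM in BORIS cells and 45.2 FPKM in EV cells. NFKBIA, which encodes IkB-alpha, was at 116 FPKM in BORIS cells and 98.1 FPKM in EV cells. All 3 values were higher in BORIS cells, with log2 ratios of 0.52 for BIRC3, 0.33 for TNFAIP3 and 0.24 for NFKBIA. These ratios, and all that follow, are log2((BORIS + 1)/(EV + 1)), with 1 FPKM added to each value. The authors' deposited table marked BIRC3 as significant with a q-value of 0.000817 and TNFAIP3 with 0.0022. It did not mark NFKBIA, whose q-value there was 0.0701.

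The subunit genes among the members had log2 ratios from -0.02 to 0.18. NFKB1, the precursor of p50, was at 35.2 FPKM in BORIS cells and 32.4 FPKM in EV cells, a log2 ratio of 0.12. NFKB2, the precursor of p52, was at 31.9 FPKM in BORIS cells and 28.0 FPKM in EV cells, a log2 ratio of 0.18. RELB, the partner of p52 in the alternative pathway, was at 16.2 FPKM in BORIS cells and 16.4 FPKM in EV cells. It was the lowest of the 10 in level and the only one below 0, with a log2 ratio of -0.02. The authors' deposited table marked none of these 3, with q-values of 0.562, 0.217 and 0.96. The subunits outside the 10, named after their values were seen, were not higher in BORIS cells. RELA was at 19.3 FPKM in BORIS cells and 21.1 FPKM in EV cells, and REL at 5.63 FPKM in BORIS cells and 5.66 FPKM in EV cells.

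The effector genes went apart from one another. SOD2, the mitochondrial superoxide dismutase, was at 94.3 FPKM in BORIS cells and 73.1 FPKM in EV cells. Its log2 ratio of 0.36 was the second highest of the 10, and the authors' deposited table marked it with a q-value of 0.0022. TNFAIP2, induced by TNF and linked to membrane protrusions, was at 87.1 FPKM in BORIS cells and 79.5 FPKM in EV cells. ICAM1, an adhesion molecule for leukocytes, was at 60.7 FPKM in BORIS cells and 55.8 FPKM in EV cells. IL32, a cytokine that can induce TNF, was at 205 FPKM in BORIS cells and 203 FPKM in EV cells. IL32 was thus the most abundant member in either library, with a log2 ratio of 0.02, while TNFAIP2 and ICAM1 had 0.13 and 0.12. The authors' deposited table marked none of these 3.

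**Figure D1:**
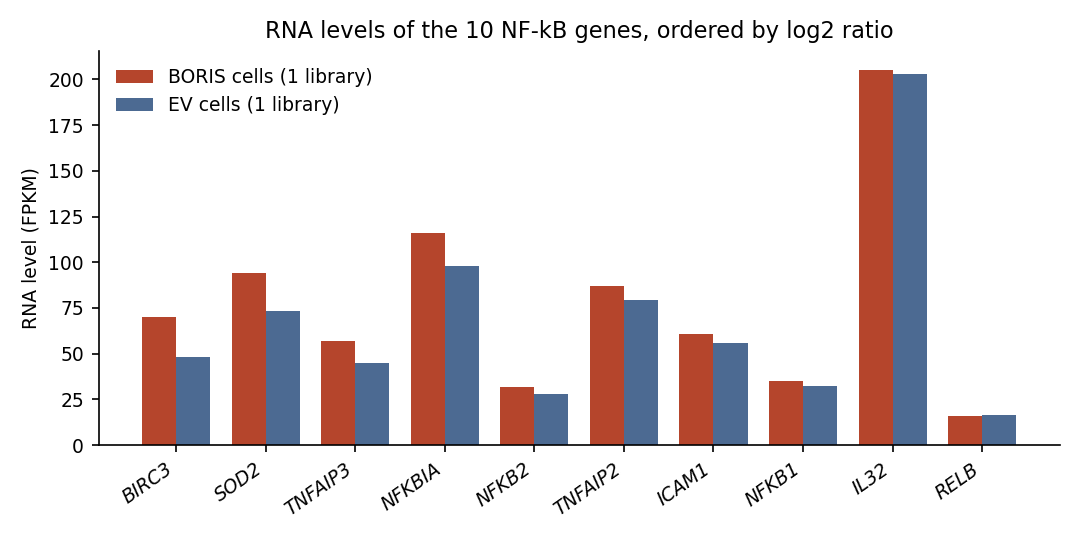
RNA levels in FPKM of the 10 genes, with the BORIS library left and the EV library right in each pair of bars, 1 library each and so no error bars. BIRC3 at the left had 69.9 FPKM in BORIS cells and 48.4 FPKM in EV cells, while the bars of IL32 (205 FPKM in BORIS cells and 203 FPKM in EV cells) and RELB nearly matched.

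In order of level, IL32, NFKBIA, SOD2, TNFAIP2, BIRC3, ICAM1, TNFAIP3, NFKB1, NFKB2 and RELB followed each other in BORIS cells. In EV cells the order differed in that TNFAIP2 stood above SOD2 and ICAM1 above BIRC3. Without replicates, neighbours in either order cannot be told apart beyond error.

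Set against all genes, the shift of the members was small in size. Of the 10 members 9 lay above a log2 ratio of 0, where 49.9% of all genes with 1 FPKM did. Their median log2 ratio was 0.16, against 0.00 for all such genes. Only BIRC3 reached a log2 ratio of 0.5, as did 3.23% of all genes, and SOD2 came next below that limit at 0.36. None reached -0.5, as 2.33% of all genes did. In the authors' deposited table, marks on the 10 went to 3 as higher and to 0 as lower, against 5.81% and 6.64% of its 13297 usable rows. As the members were picked with these values known, nothing is read from the counts.

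Each ratio was also placed among the genes with at least 10 FPKM in either library. The ratio of BIRC3 was exceeded by 2.53% of these genes, that of SOD2 by 3.72%, that of TNFAIP3 by 4.13% and that of NFKBIA by 6.34%. For NFKB2, TNFAIP2, ICAM1 and NFKB1 the shares were 9.51%, 15.6%, 17.1% and 17.8%. For RELB and IL32 they were 57.3% and 45.1%, near the middle of all genes.

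**Figure D2:**
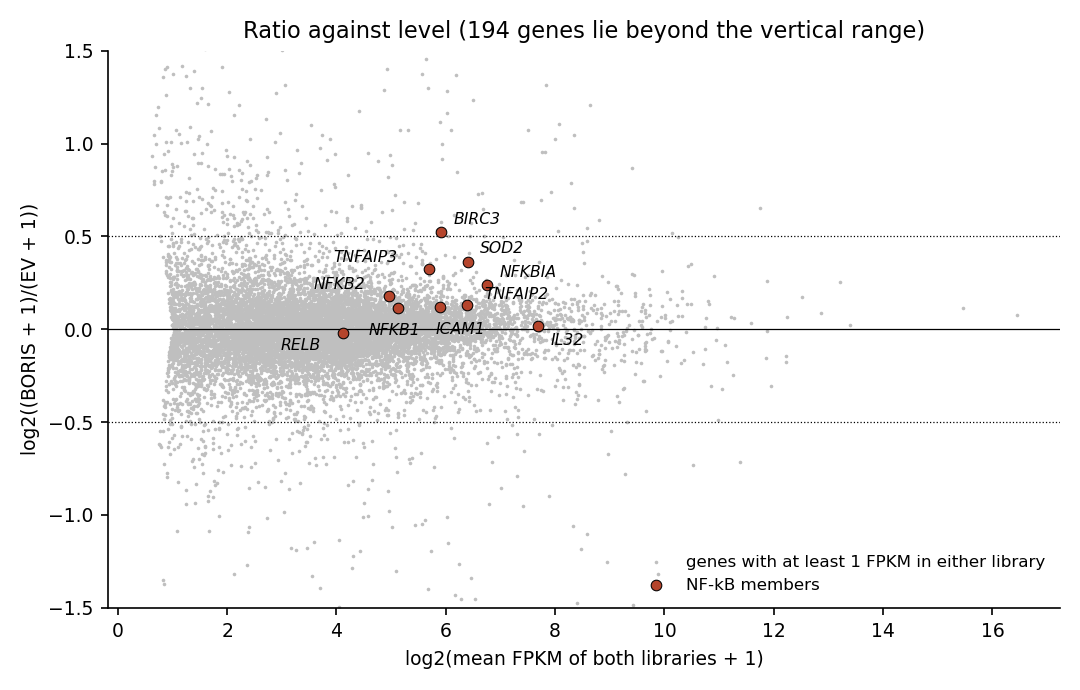
Log2 ratio of BORIS over EV (pseudocount of 1 FPKM) against log2 of the mean FPKM of both libraries plus 1, with the 10 members in red and all genes with at least 1 FPKM in either library in grey. Dotted lines stand at 0.5 and -0.5, 194 genes lie beyond the vertical range, and BIRC3 at 0.52 is the only member past a dotted line.

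Upstream of the members, the ligand genes had the highest median of the 8 lists. Of 12 ligand genes that feed the pathway, 5 had at least 1 FPKM, and 4 of these lay above 0 with a list median of 0.24. Of all genes with 1 FPKM 49.9% lay above 0, and of the authors' usable rows 5.81% were marked higher and 6.64% lower. Of the 12496 genes with 1 FPKM, 678 were marked higher and 800 lower. These shares and counts belong beside the counts of every list that follows, which leave out genes under 1 FPKM in both libraries. IL1B, a secreted form of interleukin 1, was at 52.7 FPKM in BORIS cells and 24.5 FPKM in EV cells, a log2 ratio of 1.07. IL1A, named after its value was seen, was at 25.7 FPKM in BORIS cells and 16.0 FPKM in EV cells. TNF, likewise, was at 22.2 FPKM in BORIS cells and 18.6 FPKM in EV cells. The authors' deposited table marked IL1B and IL1A as higher and did not mark TNF. Among 13 measured receptor genes 9 lay above 0, and the table marked 3 as higher, TNFRSF9, IL18R1 and CD40, and 1 as lower. The one marked lower was TLR4, the receptor for bacterial lipopolysaccharide, at 13.7 FPKM in BORIS cells and 21.3 FPKM in EV cells.

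Between receptor and dimer, the list medians were close to 0 while single genes lay on both sides. Of 14 kinase genes of the IKK complex and upstream of it, 6 lay above 0 and 8 below, with a median of -0.02 and a range of -0.19 to 0.26. The authors' deposited table marked 1 as higher, IRAK4, a kinase below interleukin 1 receptors. Of 13 adaptor and ubiquitin ligase genes 5 lay above 0, with a median of -0.02 and a range of -0.46 to 0.52, and the table marked 2 as higher and 2 as lower. The 2 higher were BIRC3 and its neighbour and paralog BIRC2, at 52.3 FPKM in BORIS cells and 40.5 FPKM in EV cells. How reads that fit both paralogs were assigned is not stated. The 2 lower were MYD88, the adaptor of Toll-like and interleukin 1 receptors, and TRAF5, an adaptor of TNF receptors, at 6.85 FPKM in BORIS cells and 9.79 FPKM in EV cells.

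Of the 7 IkB family genes 5 lay above 0, with a median of 0.18 and a highest value of 0.24, that of NFKBIA, and none of the 7 was marked in the authors' deposited table. NFKBIE and NFKBIZ, family members that NF-kB induces, had log2 ratios of 0.18 and 0.20, and NFKBIB had -0.03. Of 9 measured feedback deubiquitinases and their partners 6 lay above 0, and the table marked TNFAIP3 and ZC3H12A, an RNase that degrades cytokine mRNAs, as higher. ZC3H12A was at 27.8 FPKM in BORIS cells and 22.0 FPKM in EV cells. TNIP3, also marked higher, lay under 1 FPKM in both libraries and is outside the 9. TNIP1, a partner of A20, was at 178 FPKM in both libraries.

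Of 47 effector targets listed 35 were measured, 21 lay above 0 and 14 below, and the median was 0.09. Marks in the authors' deposited table went to 12 higher and 4 lower genes of these 35. Of its usable rows 5.81% and 6.64% were so marked, and of the 12496 genes with 1 FPKM 678 and 800. PTGS2, also listed and marked higher, lay under 1 FPKM in both libraries and is not counted. The highest ratios of all lists outside the members were those of the chemokine gene IL8 at 1.32, IL1B, CXCL1 at 1.03, CXCL2 at 0.89 and VCAM1 at 0.83. VCAM1, an adhesion molecule like ICAM1, was at 6.48 FPKM in BORIS cells and 3.20 FPKM in EV cells. CXCL1 was at 344 FPKM in BORIS cells and 168 FPKM in EV cells. CXCL2, at 2.58 FPKM in BORIS cells and 0.929 FPKM in EV cells, reached 1 FPKM in BORIS cells alone. The limit of 1 FPKM thus let it in only as a higher gene. Among the lowest were F3, the tissue factor that starts coagulation, at -0.72, TLR4 at -0.61, TRAF5 at -0.46 and SAA1 at -0.33. F3 was at 7.58 FPKM in BORIS cells and 13.1 FPKM in EV cells. The authors' deposited table marked all of these genes. Over the 88 measured pathway genes that were not members, 48 lay above 0, 10 reached 0.5 and 2 reached -0.5, and the median was 0.03. Of all genes with 1 FPKM, 49.9% lay above 0, 3.23% reached 0.5 and 2.33% reached -0.5. The lists were written with earlier results of these data known, so nothing is read from the counts.

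**Figure D3:**
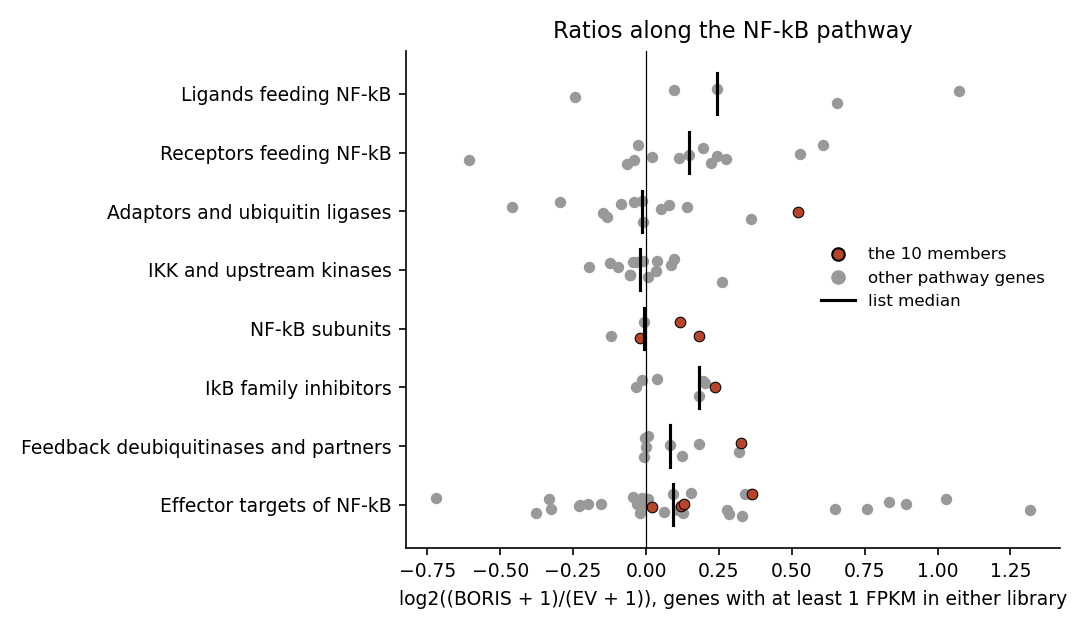
Log2 ratios of BORIS over EV for the genes of 8 lists ordered from ligands to targets, members in red, other genes in grey, and a bar at each list median (genes with at least 1 FPKM in either library; a gene of 2 lists is drawn in both). Medians of the subunit (-0.01), kinase (-0.02) and adaptor (-0.02) lists lie close to 0, while the ligand list has a median of 0.24 over 5 genes.

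Markers of other cell types were checked in the same libraries. Of 10 leukocyte markers 3 reached 1 FPKM and the list summed to 8.38 FPKM in BORIS cells and 7.01 FPKM in EV cells. Those 3 were CD68, at 2.26 FPKM in BORIS cells and 1.48 FPKM in EV cells, ITGAM, at 3.75 FPKM in BORIS cells and 3.16 FPKM in EV cells, and CD14, at 2.21 FPKM in BORIS cells and 2.25 FPKM in EV cells. The authors' deposited table marked CD68 as higher and neither of the others. CD3E was at 0 in both, and PTPRC, the common leukocyte antigen, was at 0.0371 FPKM in BORIS cells and 0.0289 FPKM in EV cells. Of 7 endothelial markers 2 reached 1 FPKM, and the list summed to 31.8 FPKM in BORIS cells and 36.9 FPKM in EV cells, nearly all of it CDH5, while PECAM1 was at 0.0134 FPKM in BORIS cells and 0.00815 FPKM in EV cells. Of 5 ciliated cell markers found 1 reached 1 FPKM, with sums of 1.15 FPKM in BORIS cells and 1.51 FPKM in EV cells, and FOXJ1 was at 0 in both. For the labelled cell type, PAX8 was at 72.5 FPKM in BORIS cells and 71.3 FPKM in EV cells and KRT7 at 885 FPKM in BORIS cells and 1055 FPKM in EV cells. EPCAM and OVGP1 stayed under 1 FPKM in both libraries. The list of 10 secretory markers summed to 1461 FPKM in BORIS cells and 1704 FPKM in EV cells. Its 8 measured genes had a median log2 ratio of -0.25, with 2 above 0 and 6 below. Of the 6, MUC1, MUC16 and WFDC2 reached 1 FPKM in EV cells alone, so that limit let them in only as lower genes. KRT8 and KRT18, also among the 6, have estimates that the authors' deposited table does not give as usable. Nothing is therefore read from this median and these counts. The authors' deposited table marked MUC1, at 0.850 FPKM in BORIS cells and 1.45 FPKM in EV cells, and MUC16, at 0.627 FPKM in BORIS cells and 1.04 FPKM in EV cells, as lower. WFDC2 had the lowest log2 ratio of the list, -0.46, without a mark. The part of these marker differences in the results was not tested. In bulk RNA, fewer cells of a type and less RNA per cell cannot be told apart. CTCFL itself, the check of the labels, was at 53.3 FPKM in BORIS cells and 0.00532 FPKM in EV cells. The authors' deposited table did not mark it as significant, so the lack of a mark there does not show that a gene was equal.

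Occupancy at the members was read from the authors' 3 peak lists, within each gene span and 10 kb on either side (hg19). In that reach lay 19 BORIS peaks, 24 CTCF peaks of BORIS cells and 22 CTCF peaks of EV cells, and every member had at least 1 of each kind. This is common among genes. Of all rows, 65.9% had a BORIS peak, 74.2% a CTCF peak in BORIS cells and 72.7% a CTCF peak in EV cells, and of the genes with 1 FPKM the shares were 81.7%, 82.0% and 80.1%. Within 1 kb of the gene start, a BORIS peak was centred at 9 of the 10 members, where 36.6% of all rows and 54.0% of the genes with 1 FPKM had one. CTCF peaks were centred there at 5 members in BORIS cells and at 4 in EV cells, where 28.9% and 25.8% of the genes with 1 FPKM had one. Where no strand was found, as for RELB, either end of the span counted as a start. The score of a peak is the authors' and has no stated unit, so each peak is placed in 1 of 10 equal parts of its own list, from part 1 (lowest) to part 10 (highest).

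At the starts of 4 members a BORIS peak overlapped CTCF peaks called in BORIS cells and in EV cells. No share over all genes is at hand for the patterns at starts, so nothing is read from their counts. BORIS itself was immunoprecipitated from BORIS cells alone. At TNFAIP3 a BORIS peak at chr6:138188198-138188696 was in part 9 of its list. CTCF peaks overlapped it at chr6:138188180-138188518 in BORIS cells, in part 8, and at chr6:138188185-138188436 in EV cells, in part 6. This is the gene whose promoter window held the CTCF core shown above, but the window is in GRCh38 and the peaks in hg19, and the match was not placed within the peak. NFKB2, the other gene with that match, had a BORIS peak in part 10 at chr10:104153636-104154122, overlapping CTCF peaks in part 8 of both CTCF lists. At NFKBIA a BORIS peak in part 9 at chr14:35873682-35874290 overlapped CTCF peaks in part 4 of both lists. At BIRC3 a wide BORIS peak of 1029 bp in part 8, at chr11:102187789-102188817, overlapped CTCF peaks in part 1 of both lists.

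At the other 5 starts with a BORIS peak, no CTCF peak was called in EV cells. NFKB1 had a BORIS peak of 1866 bp in part 5, centred 303 bp inside the gene, and ICAM1 had one in part 6, centred at 285 bp. SOD2 had a BORIS peak in part 4 centred at 352 bp, and IL32 one in part 1 centred at 641 bp. None of these 4 overlapped a CTCF peak in either list. At TNFAIP2 the BORIS peak at chr14:103593268-103593715 was in part 7, and a CTCF peak in part 1 at chr14:103593339-103593676 was called over it in BORIS cells alone. Of the 24 CTCF peaks of BORIS cells near members, 1 other was absent from the EV list, at chr6:138191107-138191279 inside TNFAIP3 and also in part 1. These 2 of 24 compare with 9.15% of the whole list. All 22 CTCF peaks of EV cells near members were also called in BORIS cells, where 5.77% of the whole EV list were not.

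**Figure D4:**
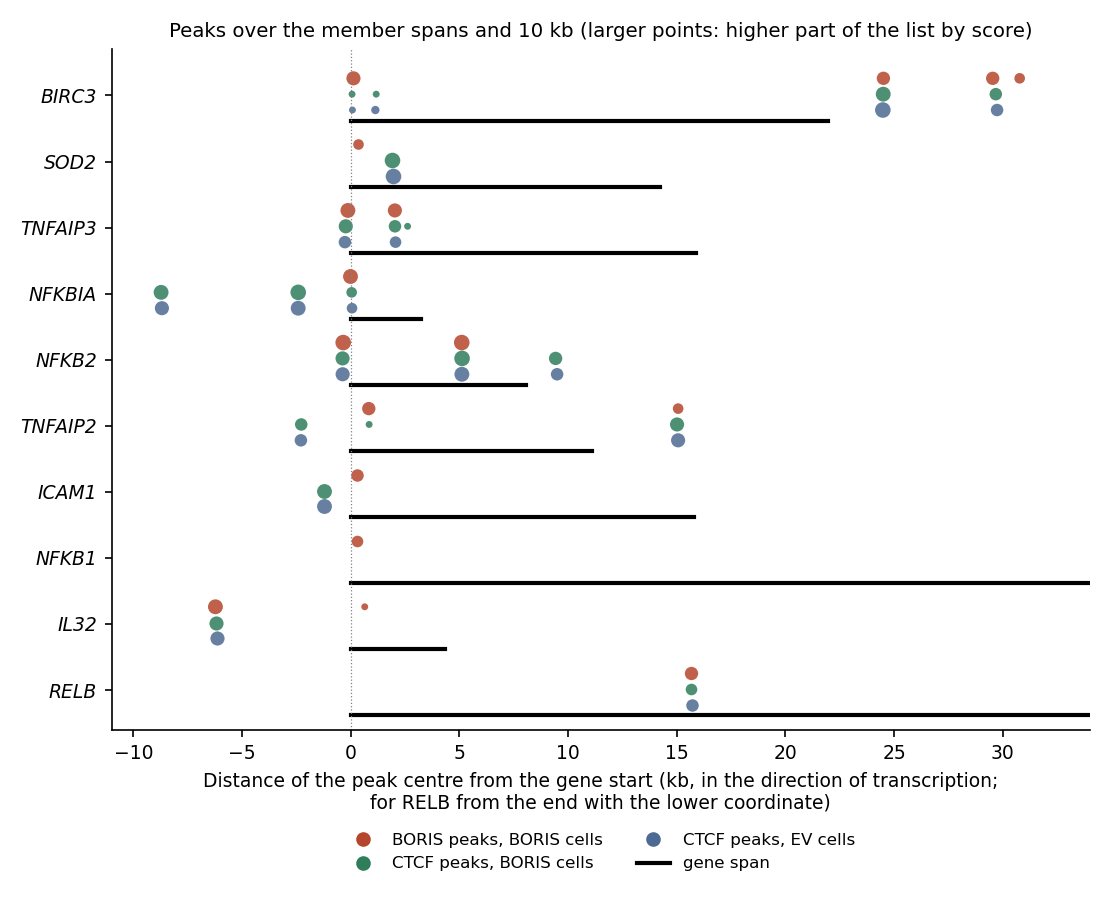
Peaks near the 10 genes by the distance of their centre from the gene start in kb (RELB from the end with the lower coordinate), with BORIS peaks of BORIS cells above CTCF peaks of BORIS cells above CTCF peaks of EV cells in each row; larger points are in a higher part of their list by score (1 to 10) and black bars are gene spans. Red points sit within 1 kb of 0 in 9 rows; 9 peaks of NFKB1 and 1 of RELB lie beyond the right edge.

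Away from the starts, CTCF peaks lay with and without BORIS. SOD2 had a CTCF peak in part 10 of both CTCF lists, centred 1887 bp inside the gene in BORIS cells and 1934 bp in EV cells, with no BORIS peak over it. ICAM1 had a CTCF peak in part 9 of both CTCF lists, centred 1247 bp before its start, also with no BORIS peak over it. NFKB2 held a second place with peaks of all 3 lists, centred 5105 bp inside the gene in the BORIS list, in part 10. RELB, which had no peak at either end within 1 kb, had BORIS and CTCF peaks together inside the gene, the BORIS peak at chr19:45520196-45520500, and a further BORIS peak without CTCF at chr19:45542896-45543163. IL32 had BORIS and CTCF together at chr16:3108481-3109687, 6228 bp before its start. Past the end of BIRC3, BORIS and CTCF overlapped at chr11:102212506-102212866 and again at chr11:102217167-102218264, which lies over the end of the BIRC2 span that is nearer to BIRC3. In all, 12 of the 19 BORIS peaks overlapped CTCF peaks of both lists, 1 overlapped a CTCF peak of BORIS cells alone, and 6 overlapped none, where 33.6% of the whole BORIS list overlapped none. No share of the whole list is at hand for the other classes, so nothing is read from their counts.

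The peak pattern at the start and the ratio of each gene stood as follows. BIRC3, TNFAIP3, NFKBIA and NFKB2, where a BORIS peak overlapped CTCF peaks of both lists, had log2 ratios of 0.52, 0.33, 0.24 and 0.18. TNFAIP2, whose BORIS peak overlapped a CTCF peak of BORIS cells alone, had 0.13. SOD2, ICAM1, NFKB1 and IL32, with a BORIS peak that overlapped no CTCF peak, had 0.36, 0.12, 0.12 and 0.02. RELB, with no peak centred within 1 kb of either end, had -0.02. The members with a kappaB match in a promoter window were BIRC3, TNFAIP3, NFKBIA, NFKB2, NFKB1 and IL32, and those without one were SOD2, TNFAIP2 and ICAM1. With 10 genes picked by name, no relation was tested.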

How the data were processed

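The submitters' processing notes list Cufflinks 2.0.0, TopHat2 and Bowtie and the build hg19, without saying what each tool did. The deposited FPKM values of 2 RNA-seq libraries were used as they stood, with the p-values and q-values and the mark of significance that the authors deposited. No read counts were given with them, so depth is unknown. The deposited peak lists give a start, an end, a score with no stated unit and a point in each peak. Which program called the peaks is not given in the sources used here. No table of the EV input was used.

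Computed here were log2 ratios with a pseudocount of 1 FPKM, a size limit of 0.5 for genes with at least 1 FPKM in either library, and overlaps of at least 1 bp between peaks and gene spans with 10 kb (Python 3.11.15, pandas 2.3.3). No test was possible on single libraries. Peak coordinates count from 1, and spans of genes are as deposited. Strands came from the RefSeq table by symbol, and 7607 rows without one were counted by either end. The calculations were checked on simulated data and by brute force.

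Members, gene lists and motifs were chosen with earlier results of these data known, and the motifs with the members' windows in view. Of 166 list entries 165 were found, 2 by another symbol. Named pathway genes are the 5 highest and 5 lowest ratios of the lists outside the members, 1 of which is not reported here. Others are said to be named after their values were seen, or are the marked genes of a list. IRAK4, MYD88, ZC3H12A, TNIP1, NFKBIE, NFKBIZ, NFKBIB, TNFRSF9, IL18R1, CD40, BIRC2, the cell type markers given and the neighbours of members were also named after their values were seen. Alternatives were other pseudocounts, minimums, scalings, limits, distances, score limits and overlap rules.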

Additional observations from a re-analysis of the deposited data

How the results depend on the processing

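No paired analysis was possible because each group held 1 library, and no library could be left out. The log2 ratios of the 10 genes kept their sign and moved by less than 0.1 under pseudocounts of 0.1 and 5 FPKM and under both scalings, and their median stayed within 0.1 of its value under these and with other minimums. BIRC3 lay close to the size limit, so the count of higher members, 1 as reported, was 0 with a pseudocount of 5 FPKM, 0 with a limit of 1 and 3 with a limit of 0.25. Of all genes with 1 FPKM, 1.70%, 1.45% and 8.06% were higher under these settings in turn. Of the members marked higher in the authors' deposited table, 1 also had a log2 ratio of 0.5. With a reciprocal overlap of 50%, 3 BORIS peaks near members counted as having CTCF in BORIS cells alone, in place of 1. Those added were the peaks at the starts of BIRC3 and TNFAIP3. BORIS peaks with CTCF in both lists then numbered 8 in place of 12. Under this rule no share of the whole list is at hand, so nothing is read from these counts. With the higher-scoring 50% of the BORIS list, 6 members had a BORIS peak at the start, where 31.2% of genes with 1 FPKM did. With a reach of 5 kb in place of 1 kb, all 10 members had one, RELB among them, where 63.7% of genes with 1 FPKM did. Unknown depth limits all peak and FPKM comparisons, and 1 library per group leaves the size of a chance difference unknown.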

Other observations

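The genes around BIRC3 on chromosome 11 were looked at after their values had been seen. Within 500 kb of BIRC3 lay 8 other genes with at least 1 FPKM, small RNA genes aside. All 8 had a log2 ratio above 0, with a median of 0.30. Of all genes with 1 FPKM, 49.9% lay above 0. The matrix protease genes MMP7 and MMP1 had the highest ratios of the 8. MMP1 and KIAA1377 reached 1 FPKM in BORIS cells alone, so that limit let them in only as higher genes. MMP7, the epithelial matrilysin, was at 5.72 FPKM in BORIS cells and 2.87 FPKM in EV cells, and MMP1, an interstitial collagenase, at 1.72 FPKM in BORIS cells and 0.661 FPKM in EV cells. MMP10, a stromelysin, was at 2.25 FPKM in BORIS cells and 1.39 FPKM in EV cells. YAP1, on the other side of BIRC3, was at 35.4 FPKM in BORIS cells and 34.5 FPKM in EV cells. Marks in the authors' deposited table went to 5 of the 8, all as higher, namely KIAA1377, BIRC2, MMP7, MMP10 and MMP1. Of its usable rows, 5.81% were marked higher, and of the 12496 genes with 1 FPKM 678 were. As these genes were looked at with their values known, nothing is read from the counts.

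Around the other 9 members no such neighbour reached a log2 ratio of 0.5. The medians of their neighbours ran from -0.21 over 2 genes at TNFAIP3 to 0.09 over 8 genes at NFKB1. At RELB 2 of 22 neighbours reached -0.5, and 4 lay above 0, against 2.33% and 49.9% of all genes with 1 FPKM. The cell adhesion gene BCAM was one of the 2, at 6.30 FPKM in BORIS cells and 12.0 FPKM in EV cells.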
